A study of Arabidopsis thaliana with 8 samples.

Results

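Protein phosphatase 2A (PP2A) is a serine/threonine phosphatase made of a scaffold subunit A, a catalytic subunit C and an exchangeable regulatory subunit B, which directs the enzyme to its substrates. The B' (B-prime, also B56) family is one class of these regulatory subunits, and plant genomes carry many B' genes. In Arabidopsis, B' subunits are known from the control of brassinosteroid signalling, defence signalling, cell division and peroxisomal metabolism. The windows described here are DNA fragments near the genes for these subunits that ALOG proteins, a plant family of transcription factors, retained in vitro.

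The 9 genes were ATB' ALPHA (AT5G03470), ATB' BETA (AT3G09880), ATB' GAMMA (AT4G15415), ATB' DELTA (AT3G26030), epsilon (AT3G54930), zeta (AT3G21650), eta (AT3G26020), theta (AT1G13460) and kappa (AT5G25510), out of 27444 protein-coding genes. The family was chosen by the windows of gamma and delta, which differ between the LOS and the LSH proteins, so these values are a description and carry no test. A window belonged to a gene when its centre lay inside the gene or at most 2000 bp from either end. By this rule 75 distinct windows belonged to the 9 genes, out of 116684, and they merged into 30 distinct regions out of 39850 by an overlap of at least 1 bp. Of the windows near the limit, those just inside were an LSH3 window 1971.5 bp from eta and an LSH2 window 1813.5 bp from zeta. Those just outside were an LSH2 window 2035.5 bp from eta and a TMF window 2164.5 bp from beta.

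The study used ampDAP-seq, in which a tagged protein is mixed with amplified and therefore unmethylated genomic DNA, here from 2-week-old seedlings of Arabidopsis thaliana, and the retained DNA is sequenced. The 7 proteins, each made by coupled in vitro transcription and translation, were TMF, G1, LOS1, LOS2, LSH1, LSH2 and LSH3, with 1 deposited list for each, and an input sample was not analysed here. As background, the LSH proteins belong to Arabidopsis itself, the LOS proteins to the liverwort Marchantia, TMF to tomato and G1 to rice. List lengths were 6902 windows for G1, 13667 for TMF, 13758 for LSH1, 14053 for LOS1, 17263 for LSH3, 21486 for LSH2 and 29555 for LOS2, each window 200 bp wide. A list holds what was found in all 3 replicates, so the spread between replicates and the sequencing depth are unknown, and no difference below was tested. The windows show what a protein retained from bare DNA, not what it occupies in a plant nucleus.

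Each of the 9 genes had a window of at least 1 protein, as did 86.6% of all protein-coding genes. LOS2, the longest list, had windows at 8 of the 9 genes (77.6% of all protein-coding genes), all but delta. LSH1 had windows at 7 (53.3% of all genes), LSH3 at 7 (59.7%) and TMF at 7 (52.8%). LSH2 had windows at 6 (67.9%), LOS1 at 6 (53.6%) and G1, the shortest list, at 3 (32.7%). As 1 gene is 11.1% of the family, no claim about the family is made from these counts. The B' genes were 2169 to 3286 bp long, with a median of 2683 bp against 2078 bp for all protein-coding genes. Longer genes offer more room for windows, but a bearing of length on these counts was not tested.

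**Figure D1:**
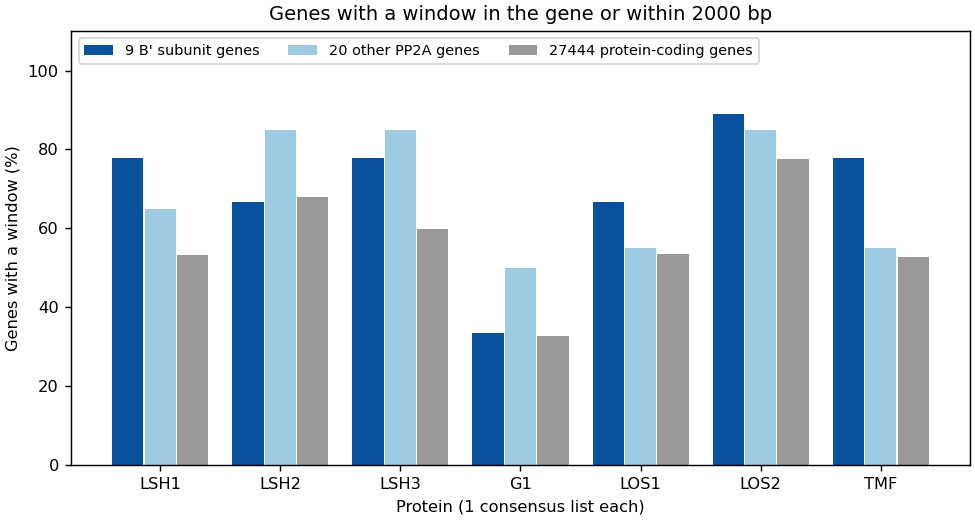
Share of genes (%, vertical axis from 0) with at least 1 window in the gene or within 2000 bp, for each of the 7 proteins. Dark bars stand for the 9 B' subunit genes, light bars for 20 other PP2A genes and grey bars for all 27444 protein-coding genes; each bar is 1 value from 1 consensus list, without error. For G1 the share of B' genes (33.3%) is next to that of all genes (32.7%).

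Within the family the number of windows varied widely. Zeta had 19 windows summed over the 7 lists, delta 14, eta 13, epsilon 11, theta 7, alpha 6, beta 6, gamma 5 and kappa 3, against a median of 6 over all protein-coding genes. Only 5.68% of all genes had as many windows as zeta or more, and 14.6% as many as delta, whereas 70.3% had at least as many as kappa. The order of these sums has no replicate spread to be read against, and 1 list more or less at a single region moves a sum by 1. It also depended on the flank searched. With 1000 bp on both sides zeta had 5 windows, fewer than delta (10), epsilon (10), eta (8) and beta (6). Zeta was the 1 member of 9 with windows of all 7 proteins (22.6% of all genes).

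**Figure D2:**
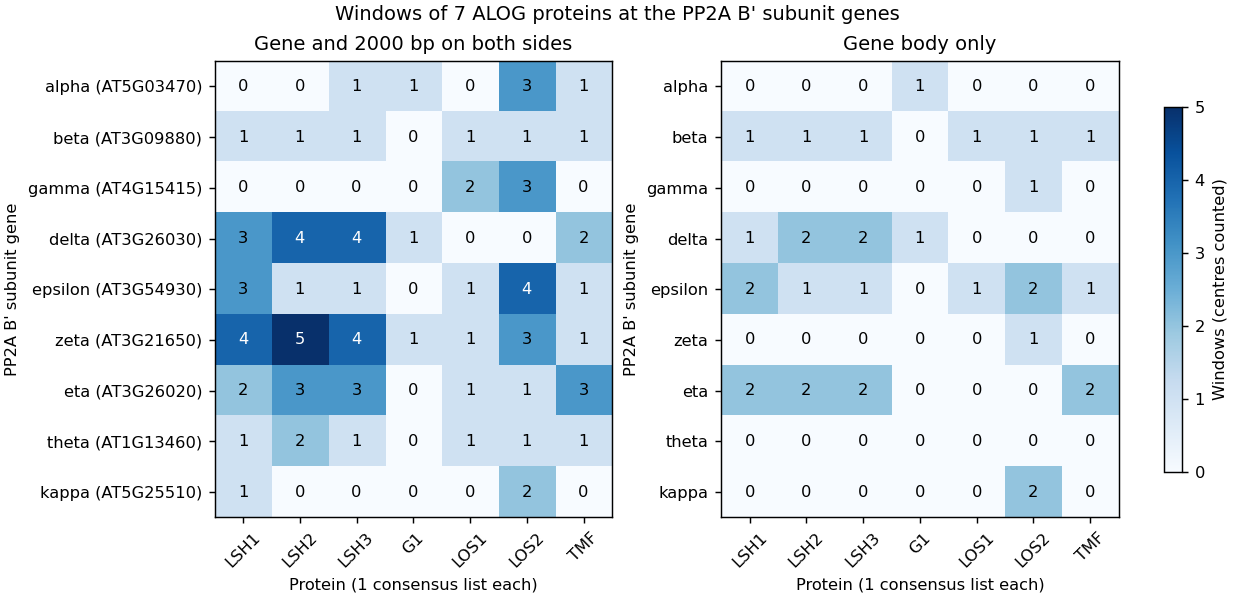
Number of windows of each protein (columns) at each of the 9 B' subunit genes (rows), counted by their centres in the gene with 2000 bp on both sides (left) and in the gene body alone (right); darker cells hold more windows. Zeta has 19 windows on the left and 1 on the right, and theta has 7 and 0.

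Most of the sequence retained near these genes lay outside them. Of the 30 distinct regions, 13 lay in the body of a B' gene and 17 in flanks only. Of those 17, 15 fell within the body of another protein-coding gene. Over the genome, 71.1% of all windows lay in protein-coding genes. Beyond the family, 19 neighbouring protein-coding genes shared a region with a B' gene by the same 2000 bp rule. Counting windows for each gene, 33 of 84 (39.3%) lay in the gene body, where the bodies made up 40.4% of the length searched. For all protein-coding genes 43.7% lay in the body, which was 37.4% of the length searched. Because the gene table used here gives no strand, a flank is described by its side on the chromosome and not as upstream or downstream, and promoters were not separated.

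Gamma and zeta are close paralogs, and B' gamma mutants are known for constitutive defence responses and premature yellowing. Gamma had 0 windows of LSH1, 0 of LSH2, 0 of LSH3, 0 of G1, 2 of LOS1, 3 of LOS2 and 0 of TMF. The gene was thus the 1 member of 9 with windows of LOS1 and LOS2 and of no LSH protein, a pattern that 1.05% of all protein-coding genes had and that was used to choose the family. Zeta had 4 windows of LSH1, 5 of LSH2, 4 of LSH3, 1 of G1, 1 of LOS1, 3 of LOS2 and 1 of TMF. The LSH lists, absent from gamma, therefore gave most of the windows at its paralog, all of them outside the body of zeta. As the absence at gamma entered the choice of the family, nothing is read from this contrast.

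The LOS windows of gamma were not in the gene itself, with 1 exception. LOS1 and LOS2 shared 2 regions on chromosome 4, at 8815354 to 8815556 and at 8815599 to 8815841, with a gap of 42 bp between them. Their centres lay 1467 and 1202 bp below the lower-coordinate end of gamma, inside the body of the neighbouring gene PUX5 (AT4G15410), which encodes a UBX domain protein. The gene table lists "regulatory subunit B prime gamma" as a synonym of PUX5 as well, so the name has been attached to both loci. In the first region the LOS1 and LOS2 windows had centres 3 bp apart, and in the second 43 bp apart. The only window in the body of gamma was of LOS2 alone, at 8816996 to 8817195, with its centre 173.5 bp inside the lower-coordinate end.

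The DNA around gamma was not devoid of other ALOG windows. A region of all 7 proteins lay on chromosome 4 at 8812766 to 8812972, with centres within 7 bp of each other, in the body of BIA1 (AT4G15400), named for its role in brassinosteroid inactivation. It was 4053 bp from gamma and so outside the limit of 2000 bp. This was the nearest window to gamma for LSH1, LSH2, LSH3, G1 and TMF. The absence of these 5 proteins at gamma thus extended from the gene down to the BIA1 region, with LOS windows lying between. Zeta also had a region of all 7 proteins beyond the limit, on chromosome 3 at 7618158 to 7618370. It lay 3305 bp from zeta, in the body of CERK1 (AT3G21630).

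Around zeta, 7 regions were found on chromosome 3, and 6 of them lay in the bodies of its neighbours. On the lower side, in TWD1 (AT3G21640), an immunophilin-like protein required for auxin transporters, a region of LSH1, LSH2 and LSH3 alone lay at 7619703 to 7619915. A region of every protein but G1 followed at 7620388 to 7620633, and after a gap of 4 bp a region of LSH2, G1 and LOS2 at 7620638 to 7620857. G1 thus had a window directly beside the shared region and none in it. In the body of zeta itself the only window was of LOS2, at 7621566 to 7621765, with its centre 96.5 bp inside the lower-coordinate end. Gamma and zeta were alike in this: each body held 1 window, of LOS2 alone, and it lay within 200 bp of the lower-coordinate end. Such windows were not particular to this pair. Windows of LOS2 alone also lay 79.5 bp inside that end of epsilon and 275.5 bp inside that of kappa. On the upper side, in AT3G21660, lay an LSH1 window at 7624626 to 7624825, a region of all 3 LSH lists at 7625056 to 7625257, and one of LSH2 and LSH3 at 7625846 to 7626046. The regions in AT3G21660 held no window of G1, TMF or a LOS protein.

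**Figure D3:**
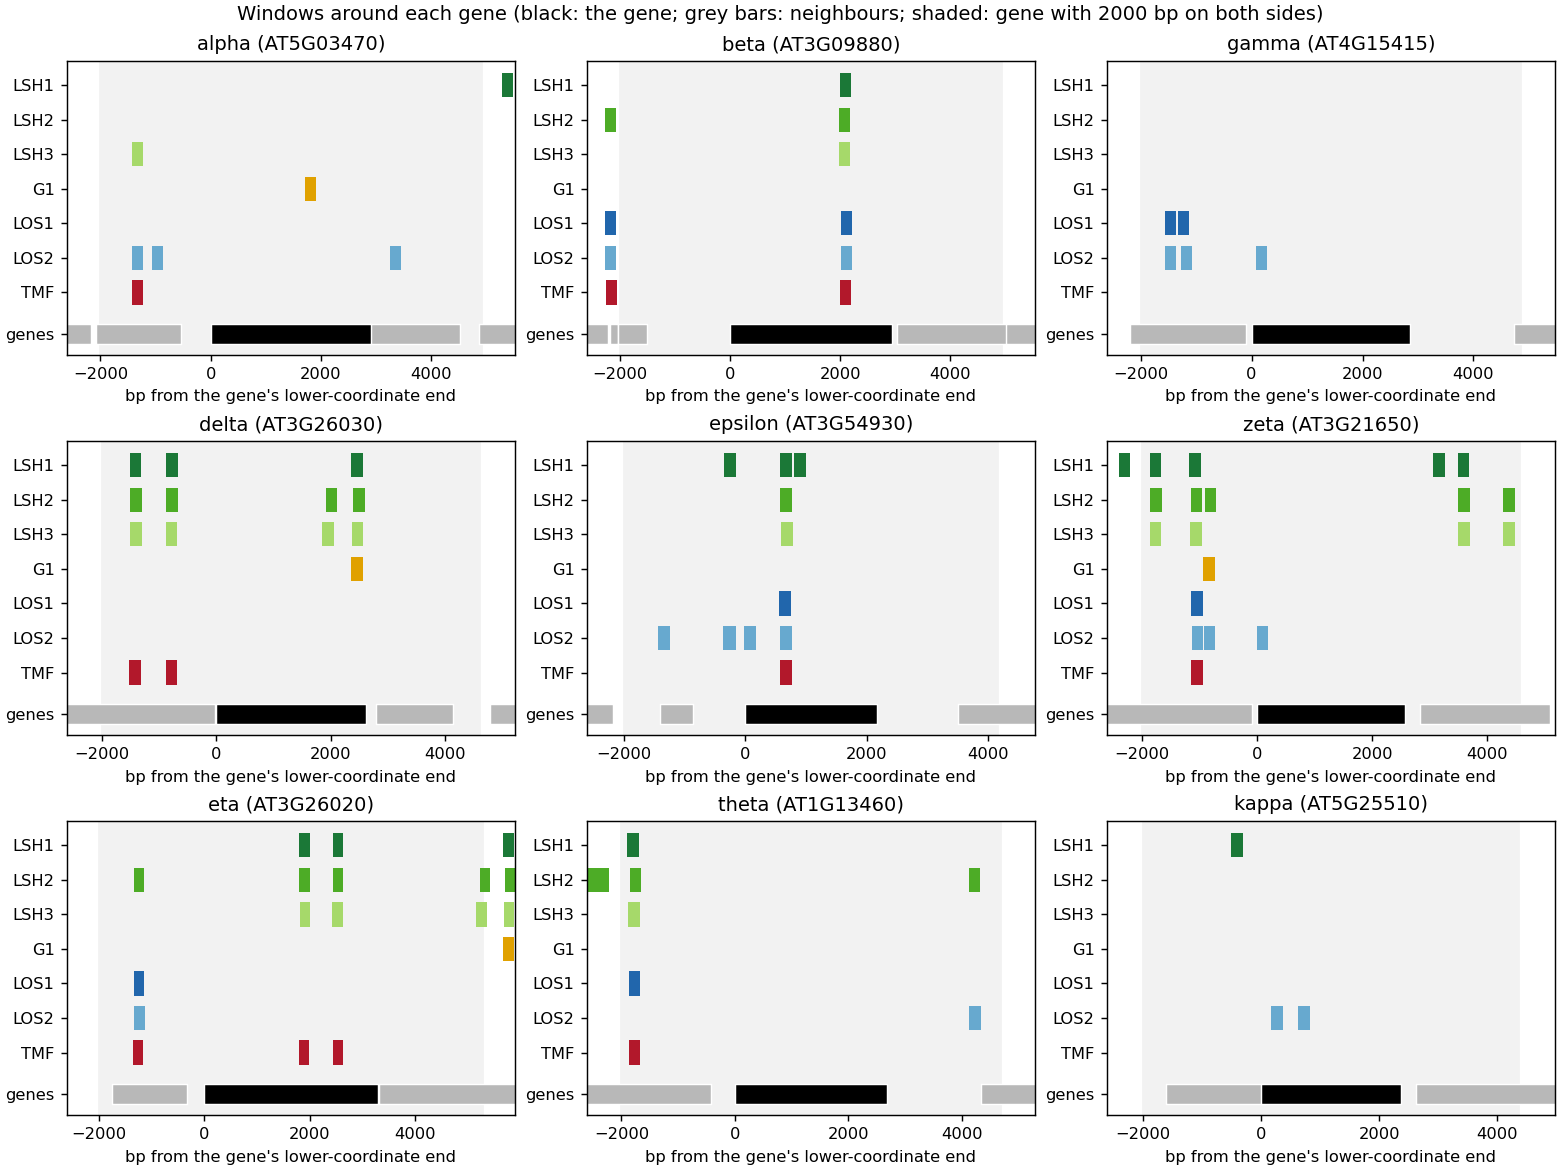
Windows of the 7 proteins (coloured bars, 1 row per protein) around each of the 9 B' subunit genes, by distance in bp from the gene's lower-coordinate end (horizontal axis). The black bar is the gene, grey bars are neighbouring protein-coding genes, and the shaded span is the gene with 2000 bp on both sides. Beta has its 6 windows stacked at 1 place in the gene, whereas those of zeta spread over both neighbours.

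Delta and eta are neighbours on chromosome 3, and their intervals overlap. Delta had 3 windows of LSH1, 4 of LSH2, 4 of LSH3, 1 of G1, 0 of LOS1, 0 of LOS2 and 2 of TMF. It was the 1 member of 9 with the 3 LSH proteins present and the LOS proteins absent, a pattern of 2.15% of all protein-coding genes that was again used in the choice of the family. Eta, of which the product is known from the regulation of the immune co-receptor BAK1, had 2 windows of LSH1, 3 of LSH2, 3 of LSH3, 0 of G1, 1 of LOS1, 1 of LOS2 and 3 of TMF.

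The pair shared 2 regions, both held by LSH1, LSH2, LSH3 and TMF and by no other list. They lay at 9515432 to 9515652 and at 9516074 to 9516279, in the body of eta, and 1411 and 776.5 bp below the lower-coordinate end of delta. In the second region the centres of the 4 windows lay within 6 bp of each other, and in the first within 21 bp. This combination of lists made up 154 regions, or 0.386% of all regions. Rarer combinations also occurred at B' genes, such as LSH2, G1 and LOS2 beside zeta (0.0376%) and LSH1 and LOS2 at epsilon (0.216%). As LSH windows without LOS windows entered the choice of the family, nothing is read from this share. Both TMF windows of delta were in eta, so the body of delta held no TMF window.

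The body of delta held 2 further regions near its upper-coordinate end. One, at 9519313 to 9519543, was held by LSH1, LSH2, LSH3 and G1, with its centre 135 bp inside that end. The other, at 9518802 to 9519065, was held by LSH2 and LSH3, whose centres were 64 bp apart, the widest offset among the 18 regions of 2 or more lists at B' genes (median 20.5 bp). The LSH3 window of this region lay close enough to eta to be counted there as well, and the LSH2 window did not. The nearest LOS windows to delta were 4547.5 bp away for LOS1 and 4538.5 bp away for LOS2. They belonged to a region of LSH2, LOS1, LOS2 and TMF at 9512283 to 9512514, in the body of AT3G26010 on the far side of eta, and these were the only LOS windows of eta. The bodies of both genes of the pair were therefore free of LOS windows in these lists, as were those of alpha and theta. Of all protein-coding genes, 26.9% had a LOS1 window in the body and 43.1% a LOS2 window.

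**Figure D4:**
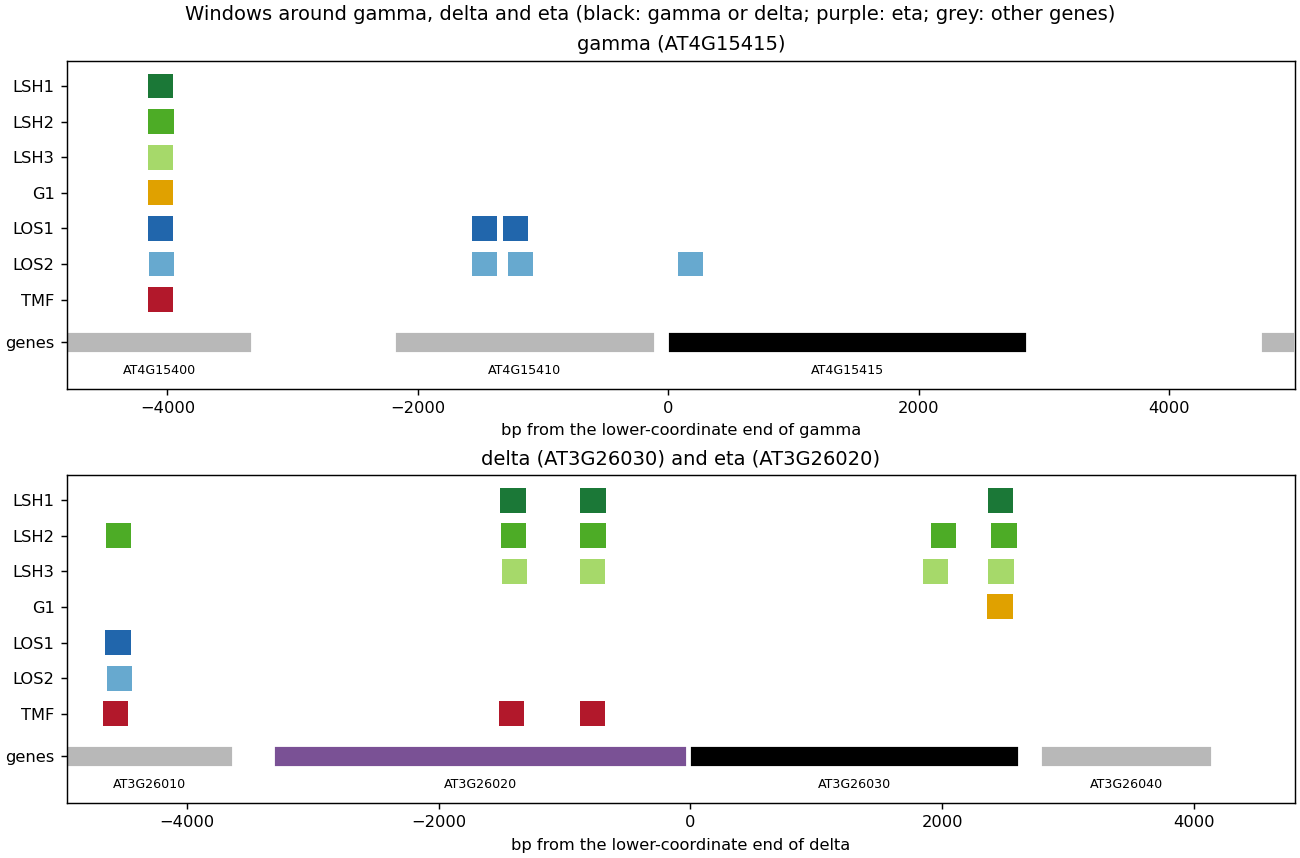
Windows of the 7 proteins (coloured bars, 1 row per protein) by distance in bp from the lower-coordinate end of gamma (top) or delta (bottom). Black bars are gamma and delta, the purple bar is eta, and grey bars are other protein-coding genes. The LOS1 windows near gamma lie in AT4G15410, a region of all 7 proteins lies 4053 bp below gamma, and the 2 regions with TMF near delta lie in eta (AT3G26020).

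Alpha and beta are a further pair of close paralogs. Their products are known from the protection of centromeric cohesion in meiosis. Alpha had 0 windows of LSH1, 0 of LSH2, 1 of LSH3, 1 of G1, 0 of LOS1, 3 of LOS2 and 1 of TMF. Beta had 1 window each of LSH1, LSH2, LSH3, LOS1, LOS2 and TMF and 0 of G1. The sums were the same, 6 and 6, but the arrangement was not.

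The 6 windows of beta formed a single region inside the gene, on chromosome 3 at 3031449 to 3031680, with centres within 32 bp. Those of alpha were spread over 4 regions of chromosome 5, of which 3 lay in neighbouring genes. A region of LSH3, LOS2 and TMF at 864905 to 865111 and a LOS2 window at 865274 to 865473 lay in AT5G03460, and a LOS2 window at 869596 to 869795 lay in AT5G03480. The body of alpha held 1 window, of G1 alone, at 868043 to 868242. This was the only region of G1 alone among the 30, and alpha and beta had no protein in common in their bodies. Just beyond the limit, 2176 bp below beta, lay a region of LSH2, LOS1, LOS2 and TMF at 3027184 to 3027406.

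Theta, the B' subunit known from peroxisomes, was the only B' gene without a window in its body. Of all protein-coding genes, 55.1% had a window in the body. Theta had 1 window of LSH1, 2 of LSH2, 1 of LSH3, 0 of G1, 1 of LOS1, 1 of LOS2 and 1 of TMF. Of these 7, 5 made up a region of LSH1, LSH2, LSH3, LOS1 and TMF on chromosome 1 at 4613872 to 4614113. It lay in the body of GT-1 (AT1G13450), a transcription factor that binds light-responsive promoters, 1774.5 bp from theta. The remaining LSH2 and LOS2 windows lay together at 4619895 to 4620098, outside protein-coding genes and 1547.5 bp from theta on the other side. Theta was also remote from G1, whose nearest window was 18817.5 bp away.

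Epsilon and kappa carried mostly regions of single lists, as did alpha. Regions held by 1 list made up 40.4% of all regions. Epsilon had 3 windows of LSH1, 1 of LSH2, 1 of LSH3, 0 of G1, 1 of LOS1, 4 of LOS2 and 1 of TMF. One region in its body, on chromosome 3 at 20351403 to 20351626, held every list but G1, with centres within 24 bp. After a gap of 19 bp an LSH1 window followed at 20351646 to 20351845. A LOS2 window at 20350819 to 20351018, centred 79.5 bp inside the lower-coordinate end, completed the windows in the body. Outside it lay a region of LSH1 and LOS2 at 20350481 to 20350696, 250.5 bp from the gene and in no protein-coding gene body, and a LOS2 window at 20349398 to 20349597.

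Kappa had 1 window of LSH1, 2 of LOS2 and 0 of LSH2, LSH3, G1, LOS1 and TMF. The LOS2 windows were inside the gene, on chromosome 5 at 8882644 to 8882843 and at 8883098 to 8883297, and the LSH1 window was in AT5G25500 at 8881964 to 8882163. No region at kappa was shared by lists. The nearest LSH2 and LSH3 windows were 3052.5 and 3053.5 bp from kappa.

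LOS2 windows lay near the lower-coordinate end inside gamma, zeta, epsilon and kappa. Their centres were 173.5, 96.5, 79.5 and 275.5 bp inside the gene, and each was held by LOS2 alone. Within 300 bp inside that end, 4 of the 9 genes had a LOS2 window, against 6.32% of all protein-coding genes, and the same 4 had a region of LOS2 alone, against 2.5%. Inside the upper-coordinate end 0 of the 9 had either, against 6.56% and 2.43% of all genes. The limit of 300 bp and the side were picked after the positions were known, so the counts are a description and were not tested. Regions of LOS2 alone made up 8 of the 30 (28.3% of all regions), and those of any single list 12 of the 30 (40.4% of all regions). Of the remaining single-list regions, 3 were of LSH1 (4.98% of all regions) and 1 of G1 (1.85%). None was of LSH2, LSH3, LOS1 or TMF alone, for which no share is given, and nothing is read from these counts.

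No region at a B' gene was held by all 7 lists, against 7.84% of all regions. All lists but G1 held 3 of the 30 (in beta, in epsilon and beside zeta), against 6.96% of all regions. G1 had windows in 3 of the 30 regions, LOS1 in 7, TMF in 8, LSH3 in 12, LSH1 in 13, LSH2 in 14 and LOS2 in 18. Regions with LSH1, LSH2 and LSH3 and without a LOS protein numbered 5 of 30 (4.64% of all regions), 2 beside zeta and 3 at delta, with 2 of those 3 shared by eta. Regions with both LOS proteins and no LSH protein were the 2 beside gamma (2.29% of all regions). As both patterns entered the choice of the genes, nothing is read from these shares. LSH2 and LSH3 occurred together in 11 regions, and TMF was with LSH2 in 7 of its 8 regions and with LSH3 in 7. No share of all regions is given for the counts per list and per pair of lists. The lists differ in length, so nothing about the B' genes is read from these counts.

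Other genes had patterns like those of gamma and delta. Windows of exactly the same lists as at gamma, LOS1 and LOS2 only, occurred at 194 other protein-coding genes (0.707%). By the summed difference in windows over the 7 lists, the nearest genes differed from gamma by 1 window. There were 42 such genes, the first by identifier being UMAMIT25 (AT1G09380), ST4C (AT1G13430) and AT1G32260, each with 1 window of LOS1 and 3 of LOS2. The lists found at delta, all but LOS1 and LOS2, were those of 77 other genes (0.281%). DCL1 (AT1G01040), which cuts microRNA precursors, was nearest to delta with a difference of 2, having 2 windows of LSH1, 4 of LSH2, 4 of LSH3, 1 of G1 and 1 of TMF. NADK2 (AT1G21640), a chloroplast NAD kinase, and AT2G36670 followed with a difference of 3, and both had LOS windows.

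Other parts of the phosphatase were compared by the same rule. A list of 20 further PP2A loci was searched, of which 13 are named in the gene table. Windows of all 7 proteins were found at 7 of the 20 (22.6% of all genes). None of the 20 had the pattern of gamma (1.05% of all genes) or that of delta (2.15%), shares at which fewer than 1 in 20 genes has either. LOS2 had windows at 17 of the 20 (77.6% of all genes), LSH2 at 17 (67.9%) and LSH3 at 17 (59.7%). LSH1 had windows at 13 (53.3%), LOS1 at 11 (53.6%), TMF at 11 (52.8%) and G1 at 10 (32.7%).

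Among the scaffold genes, RCN1 (AT1G25490), the main A subunit in auxin transport and root growth, had 21 windows with all 7 proteins present. PP2AA2 (AT3G25800) had 10 windows and PP2AA3 (AT1G13320) 2, of LSH2 and LSH3. Of the 5 catalytic subunit genes, PP2A-1 (AT1G59830) had 23 windows, with 3 of LSH1, 3 of LSH2, 4 of LSH3, 3 of G1, 3 of LOS1, 3 of LOS2 and 4 of TMF. PP2A-3 (AT2G42500) had 15 and PP2A-2 (AT1G10430) 14, also with all 7 proteins, whereas PP2A-4 (AT3G58500) had 5 and AT1G69960 a single window of LOS2. Counts thus ranged from 1 to 23 among the catalytic subunit genes, a wider range than the 3 to 19 of the B' genes.

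The remaining named loci had 4 to 10 windows. B ALPHA (AT1G51690), a B55 regulatory subunit, had 5 windows, and ATB BETA (AT1G17720) had 4, and neither had G1, LOS1 or TMF. FASS (AT5G18580), a regulatory subunit that positions the division plane, had 9 windows and lacked LOS1 and TMF. TAP46 (AT5G53000), which binds catalytic subunits, had 4 windows, and SBI1 (AT1G02100), the methyltransferase of the catalytic subunit, had 10 with all 7 proteins. The 7 loci without a name in the gene table had 1 to 13 windows, and 2 of them had all 7 proteins.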

How the data were processed

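Per the labels, the proteins were made in vitro and mixed with seedling DNA; the submitters' processing notes name MACS2, Bowtie2 and SAMtools, without a version or a setting. For the genome build and peak thresholds, nothing is given in these sources. The deposited lists hold only chromosome, start and end, with no score or read count, so the other values (coordinates in bp) are all the authors give, per the files' contents. Per the series' design text, each list is the consensus of 3 replicates.

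Gene positions and names came from a RefSeq table of assembly TAIR10.1, in which all 9 B' genes matched. As the windows' build is not named, distances to genes assume the same coordinates; 71.1% of windows lay in protein-coding genes, against 67.4% after shifts of 1000 bp. Window coordinates count from 1. The members and lists were chosen with earlier results of these data known, and a gene was named if it was a member, a listed PP2A gene, a neighbour sharing a window, or among the 3 genes nearest to gamma or delta in windows per list. BIA1 and the regions beyond 2000 bp were chosen after their values were seen. Python 3.11.15, numpy 2.4.6 and pandas 2.3.3 were used, and the counting was tested on simulated windows. Planned motif and protein comparisons were not run, because no sequence was used here.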

Additional observations from a re-analysis of the deposited data

How the results depend on the processing

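Counts at B' genes depended on the flank searched, as did the shares of all protein-coding genes, given in brackets. With 1000 bp on both sides, the genes with a window numbered 4 for LSH3 (47%), 2 for LOS1 (41%) and 4 for TMF (40.4%), and windows summed over the genes fell from 84 to 46. Then 0 genes had all 7 proteins (15.4%), 2, delta and eta, had the delta pattern (2.49%) and 0 the gamma pattern (1.08%). Regions became 19, of which 3 were LSH regions without LOS and 0 LOS regions without LSH. In the gene body alone, the genes with a window were 4 for LSH1 (29.3%), 4 for LSH3 (32.5%), 2 for LOS1 (26.9%), 5 for LOS2 (43.1%) and 3 for TMF (27.2%), with 33 windows, 0 genes with all 7 proteins (9.51%), 2 with the delta pattern (2.53%) and 0 with the gamma pattern (1.03%). Of the other PP2A genes 3 then had all 7. An alternative added after the data were seen counted each window only for its nearest gene. It gave these same counts at the B' genes except 35 windows, but other shares of all genes. These were 34% for LSH1, 39.2% for LSH3, 34.1% for LOS1, 55.3% for LOS2 and 33.5% for TMF. They were 12% for all 7 proteins, 2.35% for the delta pattern and 1.09% for the gamma pattern. With 3000 bp, also added later, 2 genes, zeta and eta, had all 7 proteins (29.4%). Smaller intervals hold fewer windows by construction, and the gamma pattern rests on windows more than 1000 bp away. Any overlap in place of the centre, and merging at 100 bp, moved no count by more than 1.5 times. No list carries scores, so a stricter threshold was not run. No paired analysis was possible because each protein has 1 list. The unknown depth limits every absence described.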
